A study of Mus musculus with 20 samples.

Results

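The genes Prdm1, Prdm14, Tfap2c, Nanos3 and Dnd1, which direct the specification and early survival of mouse primordial germ cells, were followed by name through a count table of 20 RNA-seq libraries. All 5 were found among the 21361 genes of the table, and all 5 passed the filter on low counts that left 16363 genes for testing. They were chosen by name for their role, with earlier results of these data known. Levels are CPM, the count scaled to the library's total count, and levels of different genes are compared only per kilobase of annotated exon.

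The libraries were made by poly(A) selection from mouse cell lines in 7 groups. Epiblast-like cells (EpiLCs) made up 2 groups, with 3 libraries made from Puma/Noxa double-knockout (DKO) PGC-ESC lines, and 2 made from wildtype host ESC lines. PGC-ESCs are embryonic stem cell lines that descend from primordial germ cells, and they gave 5 Bax knockout libraries and 3 DKO libraries. The embryo-derived ESCs were 2 BaxKO libraries from lines derived earlier, 1 Bax heterozygous (BaxHet) library and 4 wildtype libraries from the host embryos. Bax, Puma and Noxa are genes of mitochondrial cell death. All Bax lines, knockout and heterozygous, carry the strain label C57Bl6J/129SvEvRoEp, and all DKO and host lines carry C57Bl6J, so Bax genotype, strain label and derivation cannot be told apart. Between DKO and host lines the germ cell origin and the Puma/Noxa deletion likewise cannot be told apart, and EGFP reads were also unequal (mean 8980 CPM for PGC-ESC DKO, against 0.137 CPM for ESC Host). ESCs were kept in LIF with the GSK3 inhibitor CHIR99021 and the MEK inhibitor PD0325901, and the sources used here do not give the EpiLC conditions. Each library is 1 sample of 1 line, BaxHet has no replicate, and the p-values measure the spread between libraries.

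Primordial germ cells arise from epiblast cells that receive BMP signals. PRDM1 (Blimp1), PRDM14 and AP-2 gamma, the product of Tfap2c, form the transcription factor set that imposes the germ cell fate. PRDM1 holds down the somatic programme, PRDM14 restrains FGF signalling and new DNA methylation and AP-2 gamma acts downstream of PRDM1 and also has a role in trophoblast. NANOS3 and DND1 are RNA-binding proteins that recruit the CCR4-NOT deadenylase to messages and keep migrating germ cells alive. Outside the germline, PRDM14 also sustains the naive state of mouse ESCs.

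Of the deleted genes, Bax followed the labels. It stood at 1.66 to 2.43 CPM over the 7 BaxKO libraries, against 110 CPM in BaxHet and 229 to 533 CPM in the wildtype and DKO libraries. Noxa (Pmaip1) averaged 4.80 ± 0.916 CPM in EpiLC DKO and 324 ± 13.4 CPM in EpiLC Host (SD, n = 3 and 2). It averaged 2.99 ± 1.58 CPM for PGC-ESC DKO lines and 35.1 ± 17.2 CPM for ESC Host lines (n = 3 and 4), and neither DKO group overlapped its wildtype group. Noxa was also low in some lines not labelled as lacking it, at 4.34 to 43.4 CPM over PGC-ESC BaxKO and 6.27 to 9.54 CPM over ESC BaxKO. Puma (Bbc3) did not separate the groups: it averaged 74.5 ± 21.2 CPM in EpiLC DKO and 88.2 ± 8.56 CPM in EpiLC Host, 38.4 ± 10.8 CPM for PGC-ESC DKO lines and 43.5 ± 5.38 CPM for ESC Host lines. The sources used here do not give the deleted stretch of Puma, so reads over the whole gene do not check that label.

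The 8 ESC markers summed to 990 to 1440 CPM in EpiLCs, against 5350 to 6590 CPM in ESC and PGC-ESC libraries, and the 6 EpiLC markers summed to 2030 to 3410 CPM in EpiLCs, against 160 to 452 CPM. The EpiLC marker Otx2 separated the states less well. It averaged 19.3 CPM in EpiLC DKO and 4.87 CPM in EpiLC Host, against 1.70 CPM for ESC Host and 6.48 CPM for PGC-ESC BaxKO lines. Between EpiLC Host and ESC Host its edgeR adjusted p was 0.0968. Library totals ran between 14255399 and 33376660 counts. The 45S ribosomal RNA row Rn45s split the libraries into 9 under 10000 CPM and 11 at or above it. The higher set held every EpiLC and PGC-ESC DKO library, and the lower set held every PGC-ESC BaxKO library. The ESC BaxKO and ESC Host libraries were spread over both sets. The titles of the EpiLC libraries carry the name or number of an ESC or PGC-ESC line, read here as the parent line, and no other label states the parentage. Y-linked reads set apart only 2 of the 5 pairs so read: the mean of 4 Y-linked genes was 44.0 CPM in EpiLC DKO 3 and 42.8 CPM in PGC-ESC DKO 3, 4.93 CPM in EpiLC Host 4 and 3.84 CPM in ESC Host 4, and 0 in the other EpiLC libraries and their parent lines.

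**Figure D1:**
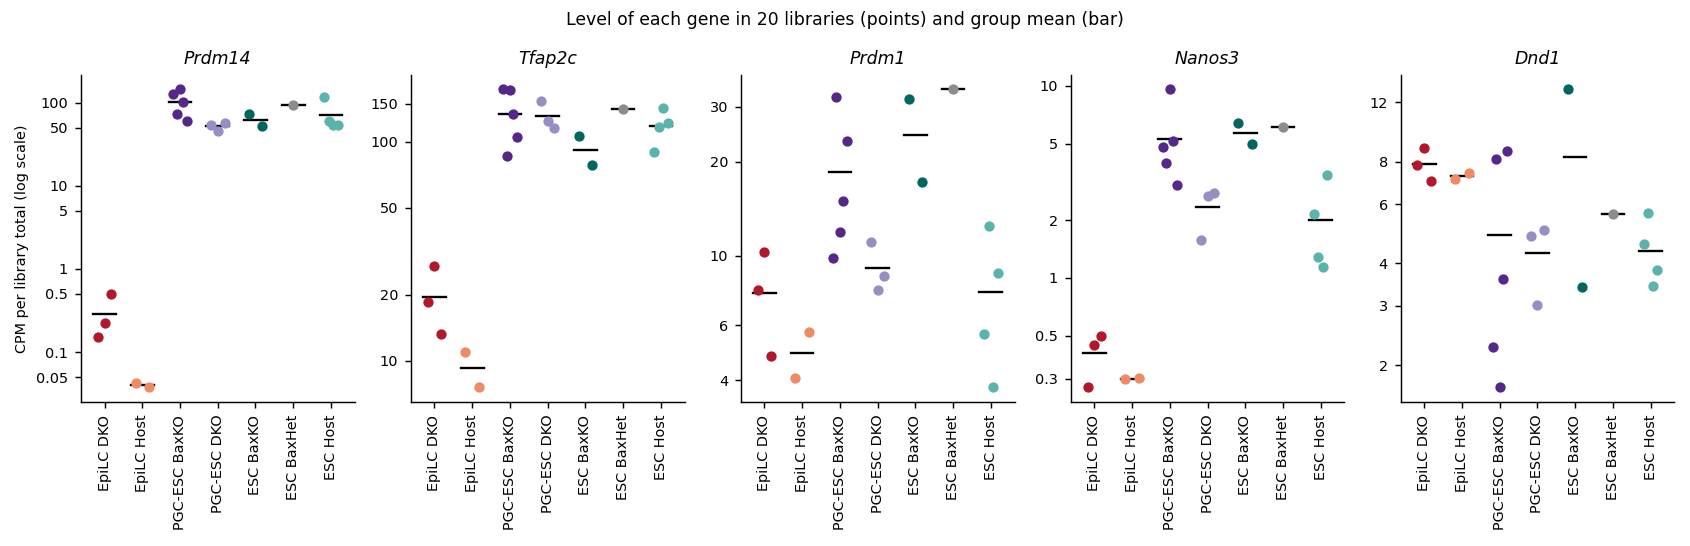
CPM of each of the 5 genes (vertical axes, log scale, each gene on its own scale) in every library (points), by group, with the group mean as a bar. Prdm14, Tfap2c and Nanos3 are lowest in all EpiLC libraries, while the EpiLC points of Prdm1 and Dnd1 lie inside the range of the ESC and PGC-ESC libraries.

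In the 15 ESC and PGC-ESC libraries the transcription factors Tfap2c and Prdm14 were the most abundant of the 5 per kilobase, with medians of 33.3 and 23.7 CPM per kilobase. Nanos3 had a median of 3.71, Prdm1 of 2.14 and Dnd1 of 1.90 CPM per kilobase. Tfap2c varied least across these lines (coefficient of variation 23.5%, highest library 2.22 times the lowest) and Prdm14 came next at 40.0%. Prdm1, Nanos3 and Dnd1 had coefficients of 64.5%, 58.2% and 57.2%, with the highest library 8.97, 8.36 and 7.60 times the lowest. In EpiLCs the order changed: Prdm14 was the lowest of the 5 in every EpiLC library, with a median of 0.0584 CPM per kilobase, and Nanos3 was next lowest at 0.326. Tfap2c at 3.6 and Dnd1 at 3.06 CPM per kilobase were then the highest.

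Conversion to EpiLCs was accompanied by lower Prdm14, Tfap2c and Nanos3 in both kinds of line. In EpiLC DKO against PGC-ESC DKO, 3 of the 5 genes were called (adjusted p under 0.05), all lower, where 47.6% of all tested genes were called, 25.1% higher and 22.5% lower. In EpiLC Host against ESC Host the called genes were again 3 of 5, Prdm14, Tfap2c and Nanos3, all lower, where 44% of all tested genes were called, 22.4% higher and 21.7% lower. These conversions use no library in common. Prdm1 and Dnd1 were not called in either.

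Prdm14 (ENSMUSG00000042414, chr1:13113457-13127163, minus strand of GRCm38), whose product opens the germ cell programme and restrains FGF signalling, fell the most of the 5. It stood at 0.150, 0.224 and 0.498 CPM in EpiLC DKO 1 to 3, against 54.3, 46.0 and 57.1 CPM in PGC-ESC DKO 1 to 3. Those EpiLC values rest on 5, 6 and 8 counts. Each EpiLC library was far under the parent line of its number, 362-fold lower for line 1, 205-fold for line 2 and 115-fold for line 3. The fitted log2 change was -7.85 ± 0.46 (SE; edgeR's quasi-likelihood test, Benjamini-Hochberg adjusted p = 8.4e-10), and the ratio of pooled counts was 213-fold lower in EpiLC DKO (95% counting interval 136 to 354).

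In the host lines Prdm14 was at the edge of detection after conversion. EpiLC Host 3 and EpiLC Host 4 had 1 count each, or 0.0426 and 0.0377 CPM, against 116, 59.4, 54.1 and 54.1 CPM in ESC Host 1 to 4. The pooled ratio was 1790-fold lower in EpiLC Host, with a counting interval of 494 to 14800, which covers counting error only. The fitted log2 change of -10.74 ± 0.68 (edgeR adjusted p = 2.38e-09) depends on how a count of 1 is handled.

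Tfap2c (ENSMUSG00000028640, chr2:172549593-172558622, plus strand), which encodes AP-2 gamma, fell but stayed measurable in every EpiLC library. It had 18.5, 27.2 and 13.2 CPM in EpiLC DKO 1 to 3, against 154, 125 and 116 CPM in PGC-ESC DKO 1 to 3. In the host lines it had 10.9 and 7.54 CPM in EpiLC Host 3 and 4, against 90.2, 117, 143 and 122 CPM in ESC Host 1 to 4. No EpiLC library reached the lowest parent-line library in either set. The fitted log2 changes were -2.95 ± 0.30 in the DKO lines (edgeR adjusted p = 4.37e-07) and -3.84 ± 0.36 in the host lines (adjusted p = 2.41e-07), or 7.72-fold and 14.3-fold lower. Trophoblast also expresses Tfap2c. Of its 6 listed markers 5 are in the table and 4 were tested, of which 2 were lower in the DKO conversion and 1 in the host conversion. Of all tested genes, 22.5% and 21.7% were called lower in these conversions. The markers are few beside those shares. They summed to 11.4 to 14.1 CPM in EpiLC DKO and 10.2 to 12.5 CPM in EpiLC Host, against 18.1 to 31.0 CPM in PGC-ESC DKO, and 15.1 to 28.9 CPM for ESC Host. Elf5, one of the markers that define the lineage, was at 0 in both EpiLC Host libraries and averaged 0.0207 CPM in EpiLC DKO. It was also near 0 in the parent lines, with means of 0.0775 CPM in PGC-ESC DKO and 0.139 CPM for ESC Host. Eomes is also counted among the mesendoderm markers.

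**Figure D2:**
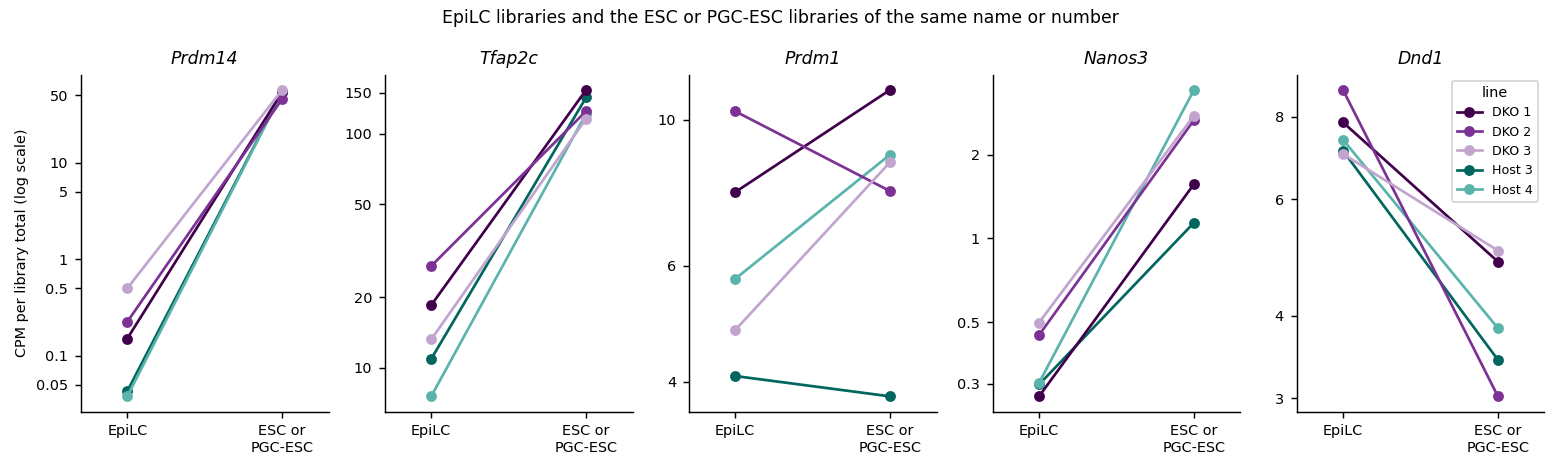
CPM (log scale, each gene on its own scale) of the 5 EpiLC libraries (left) and of the ESC or PGC-ESC library with the same name or number (right), one connected pair of points per line as read from the titles. Prdm14, Tfap2c and Nanos3 are lower as EpiLCs in 5 of 5 lines, Dnd1 is higher in 5 of 5, and Prdm1 is lower in 3 of 5.

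Nanos3 (ENSMUSG00000056155, chr8:84173731-84185217, minus strand), the RNA-binding survival factor of migrating germ cells, was low in the stem cell lines and lower still in EpiLCs. Its counts were 9, 12 and 8 in EpiLC DKO 1 to 3 (0.270, 0.449 and 0.498 CPM), against 51, 38 and 43 counts in PGC-ESC DKO 1 to 3 (1.57, 2.67 and 2.77 CPM). In the host lines it had 7 and 8 counts in EpiLC Host 3 and 4 (0.298 and 0.302 CPM), against 2.16, 1.28, 1.14 and 3.43 CPM in ESC Host 1 to 4. The EpiLC libraries lay below all parent-line libraries. Values were 5.56-fold to 5.94-fold lower than in the parents for the DKO lines, and 3.84-fold and 11.4-fold lower for Host 3 and 4. With 7 to 12 counts per EpiLC library these ratios are imprecise. The fitted log2 changes were -2.73 ± 0.52 (edgeR adjusted p = 0.000374) in the DKO lines and -2.89 ± 0.61 (adjusted p = 0.000902) in the host lines.

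The start-site sequences of Nanos3, which fell, and of Prdm1, which was not called, are given because they are the members with a RefSeq promoter entry (300 bases around the annotated start, most of them upstream, GRCm38.p6), and because AP-2 gamma, PRDM1 and PRDM14 all bind DNA. Capitals mark matches to an AP-2 motif, GCCNNNGGC, which reads the same on both strands, and to a PRDM1 core, GAAAGT or its reverse complement ACTTTC. A PRDM14 motif, GGTCTCTAA or TTAGAGACC, was also searched. The first line lies at chr8:84176503-84176802 and the other at chr10:44458699-44458998, both on the minus strand and both inside the longer GENCODE extent of the gene.
Nanos3: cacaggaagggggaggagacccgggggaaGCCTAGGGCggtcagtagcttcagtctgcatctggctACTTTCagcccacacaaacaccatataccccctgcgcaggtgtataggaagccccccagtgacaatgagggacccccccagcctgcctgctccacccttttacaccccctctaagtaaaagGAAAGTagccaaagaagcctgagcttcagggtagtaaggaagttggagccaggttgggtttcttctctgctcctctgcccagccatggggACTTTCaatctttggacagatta
Prdm1: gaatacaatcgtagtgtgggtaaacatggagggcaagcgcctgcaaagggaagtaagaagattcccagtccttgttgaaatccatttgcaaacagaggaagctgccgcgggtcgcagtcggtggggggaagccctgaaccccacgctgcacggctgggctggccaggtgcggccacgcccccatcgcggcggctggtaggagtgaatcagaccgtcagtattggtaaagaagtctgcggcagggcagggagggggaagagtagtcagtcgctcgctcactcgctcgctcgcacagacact
The Nanos3 window holds 1 AP-2 match, which begins at position -221 counted from the start site, and 3 PRDM1 core matches, which begin at -184, -63 and 27. The Prdm1 window holds none of the motifs, and neither window holds the PRDM14 motif. Of all 32851 promoters of the same length, 16.6% hold the AP-2 motif at least once, 14.3% the PRDM1 core and 0.256% the PRDM14 motif. A window with at least 1 match is thus common for the first 2 motifs. The share with 3 PRDM1 core matches was not counted. A match is a string of letters and says nothing of binding in these cells.

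Prdm1 (ENSMUSG00000038151, chr10:44437177-44528501, minus strand), the repressor of the somatic programme in germ cell precursors, was not called in the conversions. It had 7.76, 10.3 and 4.79 CPM in EpiLC DKO 1 to 3, against 11.1, 7.79 and 8.62 CPM in PGC-ESC DKO 1 to 3. In host lines it had 4.08 and 5.73 CPM in EpiLC Host 3 and 4, against 5.64, 12.5, 3.80 and 8.85 CPM in ESC Host 1 to 4. The groups overlapped in both sets. The 95% intervals of the log2 difference were -1.43 to 0.48 in the DKO lines (edgeR adjusted p = 0.408) and -1.84 to 0.27 in the host lines (adjusted p = 0.215). A fall of the size seen for Tfap2c lies outside both, and changes of either sign within these intervals are not excluded. Visceral endoderm also expresses Prdm1. Its 7 markers, with the primitive endoderm ones, summed to 4.98 to 7.88 CPM in EpiLC DKO and 6.97 to 11.9 CPM in EpiLC Host, against 4.63 to 6.82 CPM in PGC-ESC DKO, and 6.07 to 11.6 CPM for ESC Host. Ttr, which defines visceral endoderm, was at 0 in every EpiLC DKO, EpiLC Host and PGC-ESC DKO library.

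Dnd1, the partner RNA-binding protein whose loss in mouse causes germ cell loss and testicular teratomas, was higher in EpiLCs in all 5 lines but not called. It lies at chr18:36763671-36766214 on the minus strand (ENSMUSG00000044595). It had 7.85, 8.79 and 7.03 CPM in EpiLC DKO 1 to 3, against 4.83, 3.02 and 5.02 CPM in PGC-ESC DKO 1 to 3. In host lines it had 7.11 and 7.39 CPM in EpiLC Host 3 and 4, against 4.58, 5.63, 3.43 and 3.83 CPM in ESC Host 1 to 4. The groups did not overlap in either set. The share of all tested genes without overlap was not counted, here or in the other comparisons. The fitted log2 differences were 0.68 ± 0.52 (edgeR adjusted p = 0.297) and 0.60 ± 0.54 (adjusted p = 0.387). With the line number as a block, a fit of the 6 DKO libraries gave 0.68 and adjusted p = 0.046, so that 4 of the 5 genes were called. The same libraries without the block gave 0.67 and adjusted p = 0.032. Over all genes these fits called 7942 and 8059, against 7792 in the main fit, so calls were common in each.

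A neighbouring gene limits the Dnd1 reading. Dnd1 shares 140 exon bases with Wdr55 on the opposite strand, and the sources used here do not say whether counting used strand, so reads from that stretch cannot be told apart. Wdr55 averaged 58.3 ± 4.61 CPM in EpiLC DKO and 57.6 ± 3.50 CPM in EpiLC Host (SD, n = 3 and 2), against 46.5 ± 4.21 CPM in PGC-ESC DKO, and 40.9 ± 6.50 CPM for ESC Host (n = 3 and 4). It was thus higher in the same libraries as Dnd1, and its part in the Dnd1 values was not tested.

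Markers of neuroectoderm and fibroblasts were also higher after the conversion, and those of mesendoderm moved both ways. Of all tested genes, 25.1% were called higher and 22.5% lower in the DKO conversion. In the host conversion 22.4% were called higher and 21.7% lower. The 3 neuroectoderm markers (Sox1, Pax6, Neurog2) were all called higher in both conversions and summed to 45.2 to 90.1 CPM in EpiLC DKO and 101 to 111 CPM in EpiLC Host, against 4.00 to 7.14 CPM in PGC-ESC DKO, and 3.03 to 5.10 CPM for ESC Host. Sox1 made up most of it, with a mean of 64.6 CPM in EpiLC DKO and 97.2 CPM in EpiLC Host. Of the 7 fibroblast and feeder markers, 4 were tested and 3 called higher in each conversion, with sums of 17.4 to 22.8 CPM and 15.4 to 20.2 CPM in EpiLC DKO and EpiLC Host, against 2.18 to 4.76 CPM and 2.23 to 6.28 CPM in their parent lines. Postn was at 0 in every EpiLC Host, PGC-ESC DKO and ESC Host library and averaged 0.02 CPM in EpiLC DKO. Of the 4 mesendoderm markers, 1 was called higher and 2 lower in each conversion. Their sum was 10.6 to 13.7 CPM in EpiLC DKO and 11.0 to 16.9 CPM in EpiLC Host, against 22 to 26.6 CPM in PGC-ESC DKO, and 24.4 to 38.7 CPM for ESC Host. By gene, Mixl1 averaged 1.84 CPM in EpiLC DKO and 2.35 CPM in EpiLC Host, against 0.520 CPM in PGC-ESC DKO, and 0.633 CPM for ESC Host, while T averaged 5.21 CPM in EpiLC DKO against 4.28 CPM in PGC-ESC DKO and was not called. The part of such cells in the 5 genes' values was not tested. In bulk RNA, fewer cells that express a gene and less RNA of it per cell cannot be told apart.

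Whether EpiLCs of germ cell origin keep more of these genes was addressed by comparing EpiLC DKO with EpiLC Host and by testing the difference between the conversions. None of the 5 was called in EpiLC DKO against EpiLC Host, where 0.0428% of all tested genes were called. Prdm14 and Tfap2c were the 2 of the 5 with an unadjusted p under 0.05, as were 498 of all 16363 tested genes, and DESeq2 also called 0. Prdm14 was higher in each EpiLC DKO library (0.150 to 0.498 CPM) than in the EpiLC Host libraries (0.0377 and 0.0426 CPM), on 19 pooled counts against 2, a ratio of 6.24 with a counting interval of 1.51 to 55.2. Its fitted log2 difference was 2.53 ± 1.14 (95% interval 0.14 to 4.92, edgeR adjusted p = 1). Tfap2c was likewise higher in each EpiLC DKO library, at 13.2 to 27.2 CPM, against 7.54 and 10.9 CPM in EpiLC Host, with a log2 difference of 1.10 ± 0.33 (95% interval 0.41 to 1.80, edgeR adjusted p = 0.882).

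The other 3 genes overlapped between the 2 kinds of EpiLC. With 3 and 2 libraries, a lack of overlap is weak evidence, and its share over all tested genes was not counted. Prdm1 averaged 7.61 ± 2.75 CPM in EpiLC DKO and 4.91 ± 1.16 CPM in EpiLC Host, Nanos3 0.405 ± 0.120 and 0.300 ± 0.00265 CPM, and Dnd1 7.89 ± 0.882 and 7.25 ± 0.200 CPM (SD, n = 3 and 2). Their log2 differences had 95% intervals of -0.45 to 1.74, -0.98 to 1.77 and -1.08 to 1.34. In the test of the difference between conversions (DKO response minus host response), 0 of the 5 were called by edgeR and 0 by DESeq2, where 0.00611% of all tested genes were called by edgeR. An unadjusted p under 0.05 was found for 2 of the 5 and for 458 of the 16363 tested genes. The differences were 2.89 ± 1.16 for Prdm14 (95% interval 0.44 to 5.33, edgeR adjusted p = 1) and 0.89 ± 0.42 for Tfap2c (0.01 to 1.76, adjusted p = 1), and the other 3 lay between 0.08 and 0.31 with adjusted p of 1.

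**Figure D3:**
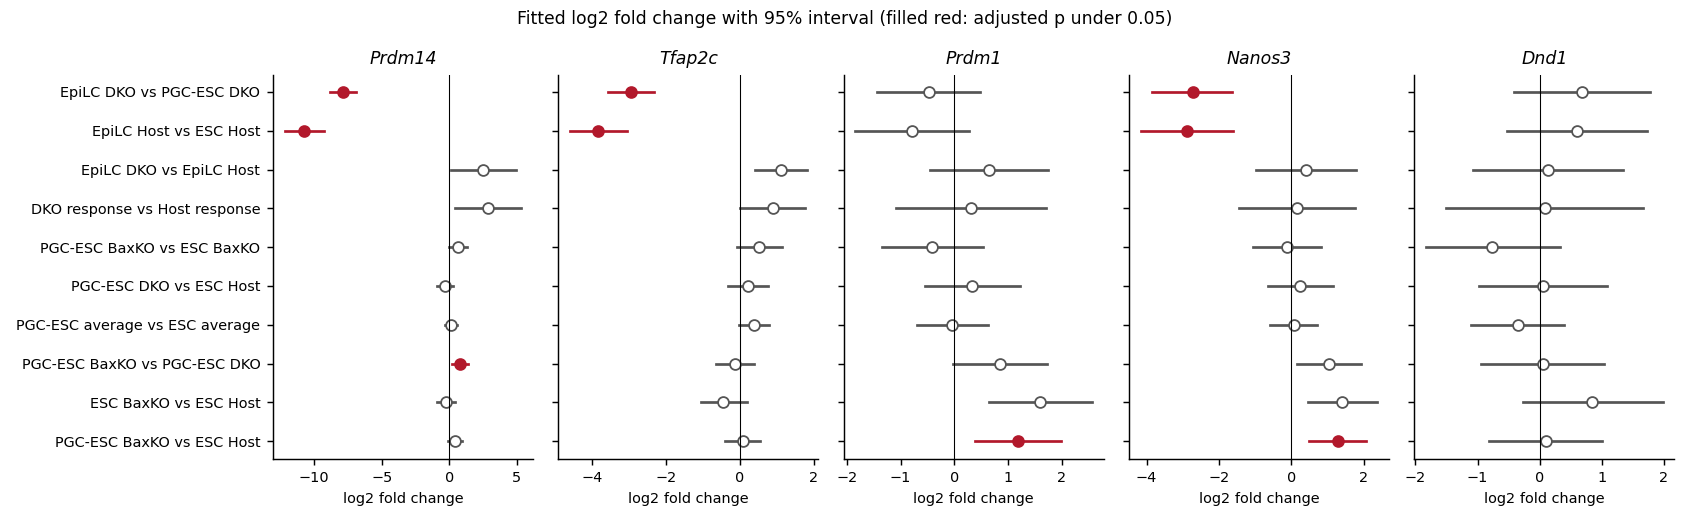
Fitted log2 fold change (horizontal axes, each gene on its own scale) with its 95% interval for the 5 genes in the 10 comparisons, named group first over the group after "vs". Filled red points have an adjusted p under 0.05: 3 genes in each EpiLC conversion, Prdm14 in PGC-ESC BaxKO against PGC-ESC DKO, and Prdm1 and Nanos3 in PGC-ESC BaxKO against ESC Host.

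Lines that descend from primordial germ cells were then compared with embryo-derived lines. None of the 5 germ cell genes was called in any of the 3 tests of origin. In PGC-ESC BaxKO against ESC BaxKO, edgeR and DESeq2 each called 0 of the 5, where 0.0367% of all tested genes were called by edgeR, and 1 of the 5 had an unadjusted p under 0.05, as did 1637 of all 16363. In PGC-ESC DKO against ESC Host both tools again called 0, where 0.116% of all tested genes were called by edgeR, and 0 of the 5 had an unadjusted p under 0.05, as did 1195 of all 16363. The average of these contrasts gave 0 by both tools, where 0.0794% of all tested genes were called by edgeR, and 0 of the 5 at an unadjusted p under 0.05, against 1233 of all 16363. The average shares all its libraries with the other contrasts.

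Among the Bax knockout lines Prdm14 had 126, 73.7, 144, 101 and 60.7 CPM in PGC-ESC BaxKO 1 to 5, against 73.3 and 51.7 CPM in ESC BaxKO 1 and 2. Its log2 difference was 0.67 ± 0.31 (95% interval 0.01 to 1.33, edgeR adjusted p = 0.494). The groups overlapped, and the 3 highest values belonged to PGC-ESC lines 1, 3 and 4. Tfap2c had 174, 86.4, 173, 134 and 105 CPM in PGC-ESC BaxKO 1 to 5, against 106 and 78.4 CPM in ESC BaxKO, with an interval of -0.09 to 1.13. Dnd1 had 2.27, 8.16, 1.72, 3.59 and 8.60 CPM in PGC-ESC BaxKO 1 to 5, against 13.1 and 3.41 CPM in ESC BaxKO 1 and 2, so that its interval ran from -1.83 to 0.32. The PGC-ESC BaxKO mean of Prdm1 was 18.5 ± 9.30 CPM, against 24.4 ± 10.2 CPM in ESC BaxKO, and that of Nanos3 was 5.30 ± 2.52 CPM, against 5.70 ± 0.983 CPM in ESC BaxKO (SD, n = 5 and 2).

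Among lines labelled C57Bl6J, Prdm14 averaged 52.5 ± 5.76 CPM for PGC-ESC DKO lines, against 70.9 ± 30.3 CPM for ESC Host lines (SD, n = 3 and 4), where ESC Host 1 had 116 CPM and the other 3 had 54.1 to 59.4 CPM. Tfap2c averaged 131 ± 19.6 and 118 ± 21.9 CPM, Prdm1 9.18 ± 1.74 and 7.69 ± 3.80 CPM, Nanos3 2.33 ± 0.665 and 2.00 ± 1.05 CPM, and Dnd1 4.29 ± 1.11 and 4.37 ± 0.968 CPM. All 5 pairs of groups overlapped. The 95% interval of the log2 difference was -0.94 to 0.24 for Prdm14, -0.33 to 0.75 for Tfap2c, -0.55 to 1.22 for Prdm1, -0.66 to 1.15 for Nanos3 and -0.98 to 1.08 for Dnd1. Differences within those intervals are not excluded by these libraries.

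Between Bax lines and lines labelled C57Bl6J, calls were made for Prdm1, Nanos3 and Prdm14. The comparisons share libraries: PGC-ESC BaxKO enters 2 of them and ESC Host enters 2. In PGC-ESC BaxKO against ESC Host, 2 of the 5 genes were called, both higher, where 17.3% of all tested genes were called and 7.94% were called higher. In ESC BaxKO against ESC Host, 0 of the 5 were called by edgeR, where 5.02% of all tested genes were called, and DESeq2 called 1. An unadjusted p under 0.05 was found for 2 of the 5 and for 3403 of the 16363 tested genes. In PGC-ESC BaxKO against PGC-ESC DKO, 1 of the 5 was called, where 23.6% of all tested genes were called and 12.2% were called higher. Of the 5 germ cell markers (Dppa3, Ddx4, Dazl, Kit and Mael), Kit and Dazl were higher and Ddx4 lower in PGC-ESC BaxKO against ESC Host, and Kit alone was called, higher, in ESC BaxKO against ESC Host. Ddx4 averaged 6.79 CPM for PGC-ESC BaxKO lines and 17.4 CPM for ESC Host lines. Kit made up most of the markers' sum, with means of 330 CPM for PGC-ESC BaxKO and 384 CPM for ESC BaxKO lines, against 149 CPM for PGC-ESC DKO and 186 CPM for ESC Host lines. The 5 markers summed to 408 to 520 CPM for PGC-ESC BaxKO lines and 425 to 553 CPM for ESC BaxKO lines, against 184 to 228 CPM for PGC-ESC DKO lines and 206 to 339 CPM for ESC Host lines. Their part in the values of the 5 genes was not tested.

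Prdm1 had 9.82, 32.3, 11.9, 15 and 23.4 CPM in PGC-ESC BaxKO 1 to 5 and 31.7 and 17.2 CPM in ESC BaxKO 1 and 2, against 5.64, 12.5, 3.80 and 8.85 CPM in ESC Host 1 to 4. The single BaxHet library had the highest Prdm1 of all 20 at 34.1 CPM (exact 95% counting interval 32.1 to 36.2). The ESC BaxKO libraries lay above all host libraries, while PGC-ESC BaxKO 1 and 3 lay below the highest host library. The log2 difference from ESC Host was 1.19 ± 0.38 for PGC-ESC BaxKO (edgeR adjusted p = 0.0389) and 1.60 ± 0.46 for ESC BaxKO (adjusted p = 0.0512, and 0.0157 by DESeq2). The first call was lost when PGC-ESC BaxKO 2 (0.88, adjusted p = 0.0986), 4 (1.26, 0.0532) or 5 (1.08, 0.0619) or ESC Host 1 (1.04, 0.0795) or 3 (0.96, 0.107) was left out, and when only the groups compared were fitted (1.16, 0.115). ESC BaxKO passed the threshold without ESC Host 2 (1.87, adjusted p = 0.0295). Against PGC-ESC DKO, at 11.1, 7.79 and 8.62 CPM, the difference of PGC-ESC BaxKO was 0.85 ± 0.41 (adjusted p = 0.138).

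Nanos3 followed a like order over the groups. It had 4.79, 3.97, 9.56, 5.17 and 3.03 CPM in PGC-ESC BaxKO 1 to 5, 6.39 and 5.00 CPM for the ESC BaxKO lines and 6.12 CPM for BaxHet, against 2.16, 1.28, 1.14 and 3.43 CPM in ESC Host 1 to 4. PGC-ESC BaxKO 5 was the only Bax library under the highest host library. The log2 difference from ESC Host was 1.28 ± 0.38 for PGC-ESC BaxKO (edgeR adjusted p = 0.0284) and 1.41 ± 0.46 for ESC BaxKO (adjusted p = 0.0861). The first call was lost without PGC-ESC BaxKO 3 (0.96, adjusted p = 0.0818) or 4 (1.28, 0.0526) and without ESC Host 2 (1.09, 0.0691) or 3 (1.07, 0.0849), and with only the groups compared (1.24, 0.114), and ESC BaxKO passed the threshold without ESC Host 4 (1.89, 0.0207). Against PGC-ESC DKO the groups did not overlap, and the difference of 1.03 ± 0.42 had an adjusted p of 0.0811 (1.17 and 0.0482 without PGC-ESC BaxKO 5).

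Prdm14 was the gene called in PGC-ESC BaxKO against PGC-ESC DKO. Its 5 PGC-ESC BaxKO values (60.7 to 144 CPM) all lay above the PGC-ESC DKO values (54.3, 46.0 and 57.1 CPM), with a log2 difference of 0.78 ± 0.27 (95% interval 0.21 to 1.35, edgeR adjusted p = 0.0462). The call was lost without PGC-ESC BaxKO 1 (0.69, adjusted p = 0.0906), 3 (0.62, 0.104) or 4 (0.78, 0.0731), and without PGC-ESC DKO 1 (0.81, 0.0946), 2 (0.73, 0.156) or 3 (0.81, 0.0915), and with only the groups compared (0.77, 0.0538). Tfap2c and Dnd1 were not called, and their log2 differences were -0.14 ± 0.24 and 0.05 ± 0.47.

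The PGC-ESC BaxKO lines split by sex-linked expression, and Prdm14 split with it. In lines 1, 3 and 4 the Y-linked genes were at 0 and the median of 296 X-linked genes, set against 8819 autosomal genes, was 0.76, 0.72 and 0.68 on the log2 scale. Lines 2 and 5 had Y-linked reads and medians of -0.16 and -0.20, and the PGC-ESC DKO libraries had medians of -0.25, -0.32 and -0.31. Prdm14 stood at 126, 144 and 101 CPM in lines 1, 3 and 4 and at 73.7 and 60.7 CPM in lines 2 and 5. Dusp9, an X-linked phosphatase that switches off ERK, was at 224, 216 and 106 CPM in the first 3 lines and at 13.3 and 16.1 CPM in the other 2. Tfap2c followed the same split, with 174, 173 and 134 CPM against 86.4 and 105 CPM. Nanos3 was also higher on that side, with 4.79, 9.56 and 5.17 CPM in lines 1, 3 and 4, against 3.97 and 3.03 CPM in lines 2 and 5. Prdm1 and Dnd1 ran the other way: Prdm1 had 9.82, 11.9 and 15 CPM against 32.3 and 23.4 CPM, and Dnd1 2.27, 1.72 and 3.59 CPM against 8.16 and 8.60 CPM. With 3 and 2 lines such a split is weak evidence, and its share over all tested genes was not counted. Other libraries went both ways. BaxHet, without Y-linked reads and with an X-linked median of 0.24, had the highest Prdm1 (34.1 CPM). ESC Host 1, with the highest X-linked median of the host lines (0.04), had their highest Prdm14 (116 CPM) and lowest Tfap2c (90.2 CPM).

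**Figure D4:**
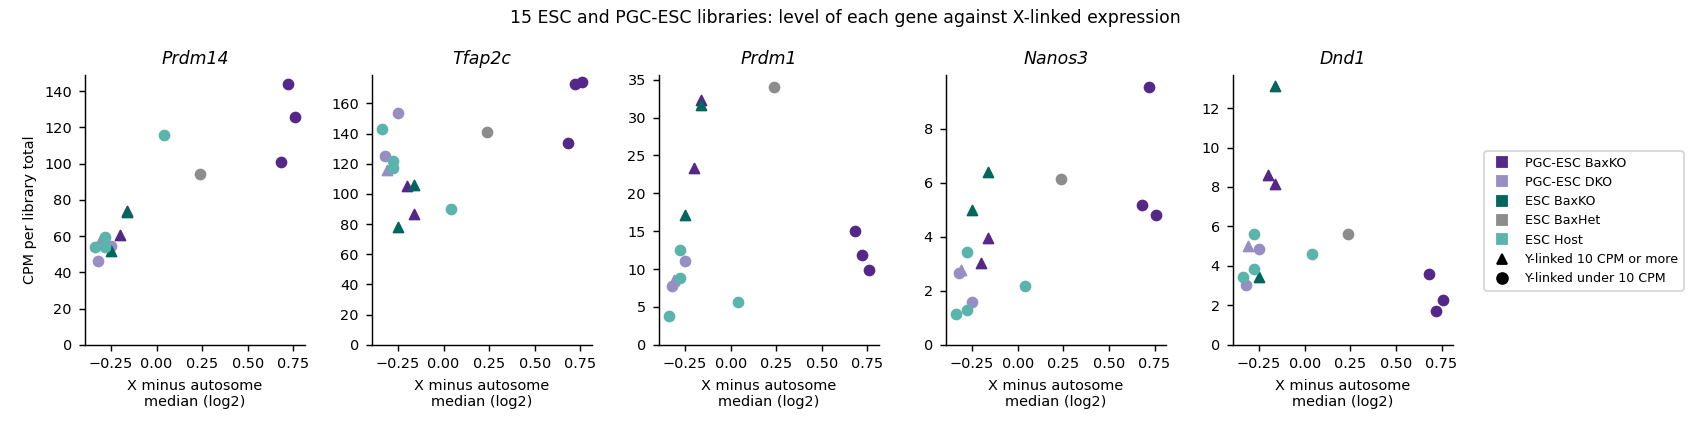
CPM of each gene (vertical axes, starting at 0) against the median log2 level of X-linked relative to autosomal genes (horizontal axes) in the 15 ESC and PGC-ESC libraries, coloured by group, with triangles where 4 Y-linked genes average 10 CPM or more. PGC-ESC BaxKO 1, 3 and 4 stand at the right with Prdm14 at 101 to 144 CPM and Dnd1 at 1.72 to 3.59 CPM.

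In a fit of the 15 ESC and PGC-ESC libraries with the presence of Y-linked reads as a covariate, Prdm14 differed by 0.70 from PGC-ESC DKO (edgeR adjusted p = 0.0623), and from ESC Host Prdm1 differed by 0.77 (adjusted p = 0.2) and Nanos3 by 1.41 (adjusted p = 0.0433). Fits with other covariates were added after the values were seen. X-linked medians of 0.68 or more occurred only in PGC-ESC BaxKO 1, 3 and 4, so the X-linked covariate is partly mixed with that group. With the X-linked median, the Prdm14 difference of PGC-ESC BaxKO from PGC-ESC DKO was -0.05 (edgeR adjusted p = 0.895), and that of Prdm1 was 1.53 (adjusted p = 0.045). From ESC Host, the same fit gave Prdm1 1.81 (adjusted p = 0.0126) and Nanos3 0.69 (adjusted p = 0.405). With the Rn45s set as the covariate, which no PGC-ESC group spans, Prdm14 differed by 0.29 from PGC-ESC DKO (adjusted p = 0.842), and from ESC Host Prdm1 differed by 0.96 (adjusted p = 0.29) and Nanos3 by 1.45 (adjusted p = 0.146). Over all genes the Rn45s fit called 93 between PGC-ESC BaxKO and PGC-ESC DKO, against 3858 in the main fit. Between PGC-ESC BaxKO and ESC Host it called 632 and the X-linked fit 972, against 2834. Within the lower Rn45s set alone, ESC Host 1 and 2 had 5.64 and 12.5 CPM of Prdm1 and 2.16 and 1.28 CPM of Nanos3, so the 5 PGC-ESC BaxKO libraries all exceeded them for Nanos3 and not for Prdm1. PGC-ESC DKO has no library in that set, so for that comparison the set and the group cannot be told apart.

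The order of the 7 groups by mean CPM differed by gene. For Prdm14 it ran PGC-ESC BaxKO, BaxHet, ESC Host, ESC BaxKO, PGC-ESC DKO, EpiLC DKO and EpiLC Host. Neighbours overlapped down to PGC-ESC DKO, and the steps to EpiLC DKO and to EpiLC Host were without overlap. Tfap2c had the same 2 steps at the bottom, with 19.6 CPM in EpiLC DKO and 9.22 CPM in EpiLC Host, against 92.1 CPM in ESC BaxKO, the next group up. Nanos3 had a step between PGC-ESC BaxKO (5.30 CPM) and PGC-ESC DKO (2.33 CPM) and another between EpiLC DKO (0.405 CPM) and ESC Host (2.00 CPM). Prdm1 overlapped at every step below the lone BaxHet library. Dnd1 was highest in ESC BaxKO (8.26 CPM, from 13.1 and 3.41), followed by EpiLC DKO and EpiLC Host, and its 4 lowest groups overlapped in turn.

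The genes around these regulators are given from lists of background knowledge, each with its count in EpiLC DKO and then EpiLC Host conversion. Beside these counts, 47.6% of all tested genes were called in the DKO conversion (25.1% higher, 22.5% lower) and 44% in the host conversion (22.4% higher, 21.7% lower). Of 13 upstream signal and competence genes, 6 rose and 1 fell in the DKO lines (median log2 change 0.31) and 5 rose and 1 fell in the host lines (0.39), totals near those shares, where the median of all tested genes was 0.01 and -0.03. Bmp8b, a BMP ligand needed for germ cell induction, rose by 4.41 ± 0.45 and 3.73 ± 0.38 (edgeR adjusted p = 4.42e-07 and 6.16e-07). Wnt3, which makes the epiblast competent, rose by 3.23 ± 0.53 and 3.50 ± 0.51, and the receptor Bmpr2 by 1.61 ± 0.28 and 1.54 ± 0.27. Smad5 rose by 0.80 and 0.42, and Eomes fell by 1.5 and 0.96.

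Of 18 early germ cell genes and partners, 10 fell and 3 rose in each conversion (medians -0.90 and -1.23). The list shares Nanog, Pou5f1, Sox2 and Klf2 with the ESC markers, so the lists are not independent. Klf2 fell by 4.56 ± 0.22 and 5.74 ± 0.28. Kit, the receptor that guides migrating germ cells, fell by 3.07 ± 0.22 and 3.28 ± 0.26, and the alkaline phosphatase Alpl fell by 2.61 ± 0.12 and 2.62 ± 0.14. Sox2 fell by 2.62 and 2.92. Of 16 partners of Nanos and Dnd1 proteins, mostly CCR4-NOT subunits, 15 were tested: 3 rose and 5 fell in the DKO lines and 2 rose and 5 fell in the host lines (medians -0.16 and -0.10), again near the shares of all genes. The CCR4-NOT subunit Cnot2 fell by 0.50 and 0.55, and Cnot10 by 0.54 and 0.61.

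Of 7 genes that PRDM14 is known to restrain in mouse, 4 rose and 1 fell in the DKO lines and 6 rose and 1 fell in the host lines (medians 1.49 and 1.44). The DNA methyltransferases Dnmt3a and Dnmt3b rose by 3.95 ± 0.39 and 2.82 ± 0.29 in DKO lines and by 2.52 ± 0.35 and 2.90 ± 0.28 in host lines, and both are also EpiLC markers. Ehmt1 rose by 0.83 and 0.77, and Uhrf1, which brings maintenance methylation to replicated DNA, fell by 0.82 and 0.73. Of 5 somatic genes held down by PRDM1 in germ cell precursors, 2 rose in each conversion (medians 0.07 and 0.47). They were Hoxb1 (4.44 ± 0.73 and 6.24 ± 0.72) and Myc (2.89 ± 0.38 and 3.23 ± 0.36), and Snai1 fell by 1.15 ± 0.32 in the DKO lines.

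Of 14 genes of later germ cells, 13 were tested. In the DKO lines 8 rose and 2 fell (median 1.79), and in the host lines 6 rose and 2 fell (median 1.17). Mael, a piRNA pathway gene, rose by 3.11 ± 0.44 and 2.41 ± 0.41, Mov10l1 by 2.18 ± 0.36 and 1.77 ± 0.34 and Dmrt1 by 2.31 ± 0.36 and 1.78 ± 0.35, while Hormad1 fell by 1.83 ± 0.53 and 2.67 ± 0.62. Of 18 listed AP-2 and PRDM paralog names, among them Prdm3 as another name of Mecom, 15 were tested, with 4 higher and 3 lower in the DKO lines (median 0.18) and 2 higher and 3 lower in the host lines (0.38). Tfap2e rose by 3.14 ± 0.55 and 1.99 ± 0.50 and Prdm8 by 2.14 ± 0.54 and 3.59 ± 0.56, while Prdm16 fell by 2.27 ± 0.42 and 2.74 ± 0.49 and Tfap2a by 2.29 ± 0.51 and 2.31 ± 0.59.

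**Figure D5:**
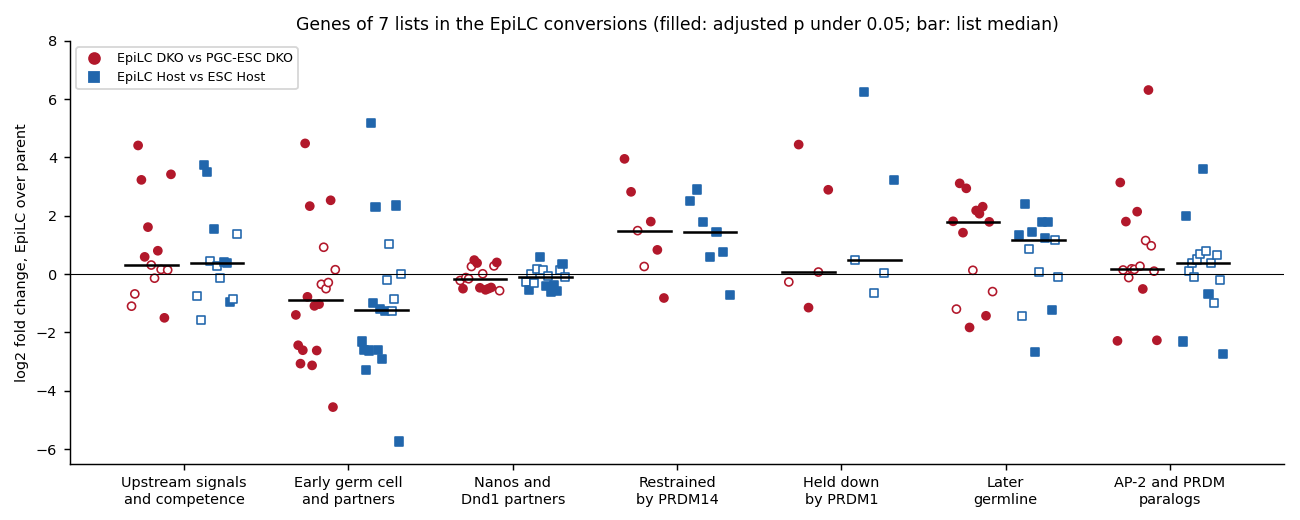
Log2 fold change of EpiLC over parent (vertical axis) for each tested gene of 7 background lists, with red circles for EpiLC DKO against PGC-ESC DKO and blue squares for EpiLC Host against ESC Host, filled where the adjusted p is under 0.05, and bars at the list medians. The early germ cell list has its medians at -0.90 and -1.23, the list restrained by PRDM14 at 1.49 and 1.44 and the later germline list at 1.79 and 1.17.

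Outside the conversions, edgeR called no listed gene in EpiLC DKO against EpiLC Host, in the difference of the conversions or in the 3 origin contrasts. Of all tested genes, 0.0428% were called in the first of these and 0.00611% in the second. The origin contrasts called 0.0367% (PGC-ESC BaxKO against ESC BaxKO), 0.116% (PGC-ESC DKO against ESC Host) and 0.0794% (their average). No call in lists of this size is near those shares. In ESC BaxKO against ESC Host, where 5.02% of all tested genes were called, the called listed genes were Tfap2a (2.63 ± 0.46), Kit (0.99 ± 0.21), Elavl2 (0.84 ± 0.23) and Eomes (-1.31 ± 0.35). Tfap2a, the AP-2 alpha paralog of Tfap2c, was also called higher in PGC-ESC BaxKO against ESC Host (1.70 ± 0.39, edgeR adjusted p = 0.0076). In that comparison 17.3% of all tested genes were called, 4 of 13 upstream genes were higher and 2 lower, and 3 of 13 later germline genes were higher and 1 lower. Dnmt3l differed by -2.40 ± 0.51 and Dnmt3a by -1.13 ± 0.29, both from the list restrained by PRDM14, and the later germ cell genes Stk31 and Ddx4 by 1.4 ± 0.28 and -1.44 ± 0.30. In PGC-ESC BaxKO against PGC-ESC DKO, where 23.6% of all tested genes were called and 12.2% were higher, 6 of 13 upstream genes were higher and 2 lower (Bmpr2 1.10 ± 0.25, Eomes -1.93 ± 0.27), and 4 of 13 later germline genes were higher (Sycp1 2.54 ± 0.44, Stk31 1.76 ± 0.32, Piwil2 1.68 ± 0.39 and Dazl 2.07 ± 0.64). Of 18 early germ cell genes 2 were higher and 3 lower, among them Kit (0.99 ± 0.19) and Utf1 (-1.80 ± 0.40). Of 15 partners of Nanos and Dnd1 proteins 4 were higher and 1 lower, and of 7 genes restrained by PRDM14 Dnmt3l was lower (-2.06 ± 0.54). None of the 5 genes held down by PRDM1 and none of the 15 paralogs was called.

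The genes whose profiles over the 20 libraries lay nearest to each member were found by the root mean square (RMS) difference between centred log2 CPM profiles. They were picked for likeness in these same libraries, so changes like the member's follow from the choice and are not added evidence. Nearest to Prdm14, whose own spread was 3.68 (SD, log2), were Jam2 (RMS difference 0.50), Osm (0.61) and 2310043M15Rik (0.70). Jam2 differed by -8.13 ± 0.30 in EpiLC DKO and -9.32 ± 0.38 in EpiLC Host from their parent lines, and Osm, a cytokine of the LIF family, by -8.55 ± 0.48 and -12.05 ± 0.77. For Tfap2c (spread 1.45) the nearest were 1700108F19Rik (0.41), Ddc (0.42) and Calhm5 (0.42). For Nanos3 (spread 1.51) they were Hsd17b14 (0.44), Timm8a2 (0.49) and Zfp42 (0.49), the naive marker Rex1. Zfp42 differed by 1.61 ± 0.08 in PGC-ESC BaxKO and 1.59 ± 0.10 in ESC BaxKO from ESC Host. The nearest genes of Prdm1 (spread 0.93) were Ano9 (0.37), Trim12c (0.40) and Slc12a8 (0.44), and those of Dnd1 (spread 0.68) were F730043M19Rik (0.39), Lrfn3 (0.40) and Zfp266 (0.40). Beside the gene's own spread, these differences are larger for Prdm1 and Dnd1 than for the other members, so the likeness is weaker there.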

How the data were processed

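Per the submitters' processing notes, reads were aligned with STAR 2.7.7a to mm10. The counting tool, its annotation and its use of strand have no statement in the sources used here. The authors deposited raw counts per gene for the 20 libraries, with totals of 14255399 to 33376660. Of 21361 genes, 16363 passed edgeR's filter on low counts by group. edgeR 4.0.16 (R 4.3.3) fitted a quasi-likelihood model with TMM scaling and 7 group terms (13 residual degrees of freedom), and p-values were Benjamini-Hochberg adjusted over all tested genes, with calls at 0.05. DESeq2 1.42.0, RLE scaling, no filter, only the groups compared, each library left out, a replicate block and a Y-linked covariate were alternatives. Intervals are at 95%, and counting intervals cover counting error only. The scripts were tested on simulated data. The 5 genes and all lists were chosen with earlier results of these data known. Other named genes were, per member, the 3 with the nearest profiles (log2 CPM, prior count 2), and, per list, up to 4 called genes with the smallest adjusted p. Exon lengths came from GENCODE M21, and promoters from RefSeq (GRCm38.p6). EpiLCs and parents of the same number were read as the same line from the titles, which no other label states, and the correlation of their deviations from group means was 0.11 and 0.17 for Host 3 and 4 and 0.11, 0.12 and 0.09 for DKO 1 to 3. The labels do not say how replicate lines were kept apart in culture, so p-values measure the spread between these libraries. No pair of libraries within a group agreed within counting noise (24 pairs, chi-square per gene 6.77 to 225).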

Additional observations from a re-analysis of the deposited data

Results flagged for a closer look

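Prdm14 in ESC Host 1, at 116 CPM, stood apart from the other 3 ESC Host libraries, which had 59.4, 54.1 and 54.1 CPM. It was the 1 value to stand out among 10 sets of 4 or 5 libraries tested for a lone high or low library, and chance alone gives about 1 in 20 such sets. ESC Host 1 also had the highest Dusp9 of the host lines, at 112 CPM against 17.5, 72.0 and 62.7 CPM, and an X-linked median of 0.04 against -0.28, -0.34 and -0.28. Their part in the Prdm14 value was not tested. Without ESC Host 1, Prdm14 was called higher in PGC-ESC BaxKO than in ESC Host, by 0.72 on the log2 scale (edgeR's quasi-likelihood test, Benjamini-Hochberg adjusted p = 0.0367), against 0.43 and an adjusted p of 0.223 with it.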

How the results depend on the processing

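Of 166 recounts of called members under the alternatives, 138 stayed within 1.5 times the reported count, and 791 member values kept their direction and side of the threshold, while 38 did not. The recounts compare numbers, not which genes were called, and many come from comparisons with 0 called. For PGC-ESC BaxKO against PGC-ESC DKO 7 of 18 stayed. For ESC BaxKO against ESC Host 10 of 16 stayed, and for PGC-ESC BaxKO against ESC Host 8 of 19. Both EpiLC conversions kept at least 3 called members throughout, and the 2 EpiLC-to-EpiLC tests and 3 origin contrasts kept 0. In PGC-ESC BaxKO against PGC-ESC DKO (1 called), 0 were called with only the groups compared, the replicate block, the Y-linked covariate or the Rn45s covariate, and 0 to 2 with a library left out. Calls over all genes there numbered 3858 in the main fit and 3597 with only the groups compared. They numbered 2981 with the Y-linked covariate and 93 with the Rn45s covariate. In ESC BaxKO against ESC Host (0 called), 1 was called with RLE scaling, no filter, DESeq2 or the X-linked covariate, and 0 to 1 with a library left out. Calls over all genes there numbered 821 in the main fit, 832 with RLE scaling and 737 without the filter. They numbered 1419 with DESeq2 and 913 with the X-linked covariate. In PGC-ESC BaxKO against ESC Host (2 called), 0 were called with only the groups compared or the Rn45s covariate, 1 with the replicate block, the Y-linked covariate or the X-linked covariate, and 0 to 2 with a library left out. Prdm14 in PGC-ESC BaxKO against PGC-ESC DKO differed by 0.78 in the main fit and by -0.05 with the X-linked covariate (edgeR adjusted p = 0.895). In that fit Prdm1 was called in its place (1.53, adjusted p = 0.045). The Rn45s and X-linked covariates were chosen after seeing the data, and the cause of these changes was not tested.

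Replicate numbers were read as line numbers only in the conversions. In the other comparisons they are shared numbers, and with them as a replicate block Prdm14 differed by 0.90 between PGC-ESC BaxKO and PGC-ESC DKO (adjusted p = 0.0648) and Nanos3 by 1.47 between PGC-ESC BaxKO and ESC Host (adjusted p = 0.0785), both no longer called. Apart from these and Dnd1 in the DKO conversion, the block changed no other member's call. With the block, calls over all genes numbered 418 between PGC-ESC BaxKO and PGC-ESC DKO (3858 without), 180 between ESC BaxKO and ESC Host (821) and 1337 between PGC-ESC BaxKO and ESC Host (2834). DESeq2 called 33 genes between EpiLC DKO and EpiLC Host (7 by edgeR), 5 for the difference of conversions (1), 74 in PGC-ESC BaxKO against ESC BaxKO (6), 92 in PGC-ESC DKO against ESC Host (19), 57 for the average (13) and 1419 in ESC BaxKO against ESC Host (821). Depth limits Prdm14 and Nanos3 in EpiLCs, with 1 to 12 counts a library.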
